A study of Mus musculus with 18 samples.

Results

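The genes described here are the transcriptional regulators around NRF2 in the mouse retina, chosen by gene symbol: Nfe2l2, which encodes NRF2, its relative Nfe2l1, the NRF2 inhibitor Keap1, the competing repressors Bach1 and Bach2, and the small MAF partners Maff, Mafg and Mafk. All 8 were found among the 35006 gene names of the count data. Poly(A) RNA was sequenced from the retinas of male mice in 18 libraries. The 3 WT and 6 WT + NACET libraries came from normoglycemic C57BL/6J mice, and the 4 Akita and 5 Akita + NACET libraries from mice heterozygous for the Ins2Akita allele, which misfolds insulin 2 and causes diabetes of early onset through loss of functional beta cells. NACET, the ethyl ester of N-acetylcysteine and a precursor of cysteine and glutathione, was offered in the drinking water (0.33 mg/mL, aimed at 50 mg/kg daily) between weeks 4 and 24 of life, while WT and Akita mice drank plain water over the same weeks. The model is one of whole-body hyperglycemia, and every library is a mixture of all retinal cell types. The sources used here do not say whether a library came from a single animal or from pooled retinas, so that p-values measure the spread between these libraries.

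NRF2 is a basic leucine zipper factor of the cap'n'collar family. Under resting conditions KEAP1 binds it and hands it to a CUL3 ubiquitin ligase, and electrophiles or oxidants that modify cysteines of KEAP1 let NRF2 accumulate. In the nucleus NRF2 pairs with a small MAF protein on antioxidant response elements of genes for glutathione synthesis, quinone reduction, iron storage and NADPH supply, while BACH1 and BACH2 pair with the same small MAF proteins and repress such elements. Much of this control acts on protein stability, nuclear entry and heme or redox sensing, which a transcript level does not report. NRF1, the product of Nfe2l1, is held in the endoplasmic reticulum and drives proteasome genes after it has been cleaved.

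Promoter sequences are given for the regulators whose 300-base window held the core letters of an antioxidant response element, because the MAF genes and Nfe2l2 are themselves candidate carriers of such letters. The windows run from 250 bases before to 50 bases after the RefSeq transcription start (GRCm38.p6), and all 8 regulators were matched, with 14 starts in all, 5 of them of Nfe2l1 and 3 of Maff. The core searched was TGACNNNGC on both strands. It was found in 4 of the 14 windows, those of Nfe2l2, Mafg and Mafk and the first of the 3 of Maff, against 12.4% of all 32851 promoter windows. The shorter palindrome TGANTCA, the center of a MAF recognition element of the TPA-response type, was found in 0 of the 14 windows, against 7.81% of all windows. In the sequences below, read 5′ to 3′ on the strand of the gene, capitals mark the matched core.
Nfe2l2, chr2:75704614-75704913, minus strand: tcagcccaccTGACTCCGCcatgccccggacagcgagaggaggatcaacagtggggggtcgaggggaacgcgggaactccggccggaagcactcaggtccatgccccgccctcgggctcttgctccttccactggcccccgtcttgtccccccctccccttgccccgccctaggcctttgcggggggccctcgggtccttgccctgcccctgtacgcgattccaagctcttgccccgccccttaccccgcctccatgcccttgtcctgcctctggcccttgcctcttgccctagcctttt
Maff, chr15:79346371-79346670, plus strand: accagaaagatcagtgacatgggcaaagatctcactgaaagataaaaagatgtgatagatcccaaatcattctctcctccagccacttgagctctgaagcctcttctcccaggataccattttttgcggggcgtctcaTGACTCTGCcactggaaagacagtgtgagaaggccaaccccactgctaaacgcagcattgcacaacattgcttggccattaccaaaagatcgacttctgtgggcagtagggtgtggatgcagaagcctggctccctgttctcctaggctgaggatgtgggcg
Mafg, chr11:120633498-120633797, minus strand: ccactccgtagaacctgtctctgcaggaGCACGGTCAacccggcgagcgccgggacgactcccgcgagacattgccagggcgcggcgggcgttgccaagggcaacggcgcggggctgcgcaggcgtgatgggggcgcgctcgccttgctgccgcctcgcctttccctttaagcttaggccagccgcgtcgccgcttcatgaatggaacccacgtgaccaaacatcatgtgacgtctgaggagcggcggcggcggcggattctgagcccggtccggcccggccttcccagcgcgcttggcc
Mafk, chr5:139791286-139791585, plus strand: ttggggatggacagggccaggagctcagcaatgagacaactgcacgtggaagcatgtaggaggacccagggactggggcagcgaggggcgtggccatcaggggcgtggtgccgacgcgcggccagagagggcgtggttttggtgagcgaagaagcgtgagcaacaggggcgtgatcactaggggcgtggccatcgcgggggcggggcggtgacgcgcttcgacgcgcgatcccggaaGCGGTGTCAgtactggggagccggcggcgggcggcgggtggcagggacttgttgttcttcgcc
The match began 240 bases before the start in Nfe2l2, 112 in Maff, 222 in Mafg and 13 in Mafk. It read in the direction of the gene in Nfe2l2 and Maff and on the opposite strand in Mafg and Mafk. No binding was measured, so these letters describe the windows and do not mark sites in use.

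Depth and composition varied between libraries. Each library held between 11495596 and 17814479 counts in genes. The share of uniquely aligned reads that lay outside annotated exons was 14.9 to 17.1% in WT, 9.55 to 16.5% in WT + NACET, 9.67 to 13.3% in Akita and 14.3 to 19.8% in Akita + NACET, so that Akita lay below both WT and Akita + NACET with no overlap. Retinal markers were abundant: the rod markers Gnat1 and Pde6b summed to between 13732 and 32168 CPM (gene counts divided by the effective library size, times 1e6), and the lymphocyte markers Ms4a1 and Cd3e had 0 counts. Lens markers (Cryaa, Crygs and Crybb2) summed to 19155 CPM in WT + NACET replicate 5, 2391 in Akita replicate 2 and 1063 in Akita + NACET replicate 3, against at most 296 in the other 15 libraries. The summed rod markers were 21106 to 32168 CPM in Akita, above every Akita + NACET library (13732 to 18432) and overlapping WT (14533 to 21301) only at its highest library. In such bulk RNA, fewer cells of a type and less RNA per cell cannot be told apart.

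All 8 regulators passed the filter on low counts, among 16183 genes tested. Per length of exon, Nfe2l1 was the most abundant and Bach2 the least. On the scale of RPKM (CPM per kilobase of merged exons), the means over 18 libraries were 24.8 ± 2.48 (SD) for Nfe2l1, 12.2 ± 0.938 for Keap1, 7.998 ± 1.23 for Nfe2l2 and 3.33 ± 0.795 for Mafg. Mafk followed at 1.51 ± 0.250, Bach1 at 1.39 ± 0.186, Maff at 0.877 ± 0.358 and Bach2 at 0.230 ± 0.0556. The order of Nfe2l1 over Keap1 over Nfe2l2 over Mafg, with Bach2 last, was the same in all 18 libraries. The middle of the order was not fixed: Mafk exceeded Bach1 in 12 of 18 libraries and Bach1 exceeded Maff in 14. Mafg was the main small MAF transcript, with mean shares of the summed RPKM of the 3 between 55.5% in Akita and 61.7% in WT. Nfe2l1 was also the most counted, at 1470 to 2397 counts per library, while Bach2 had 22 to 60 counts and Maff 10 to 55, so that these last values are the least precise.

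**Figure D1:**
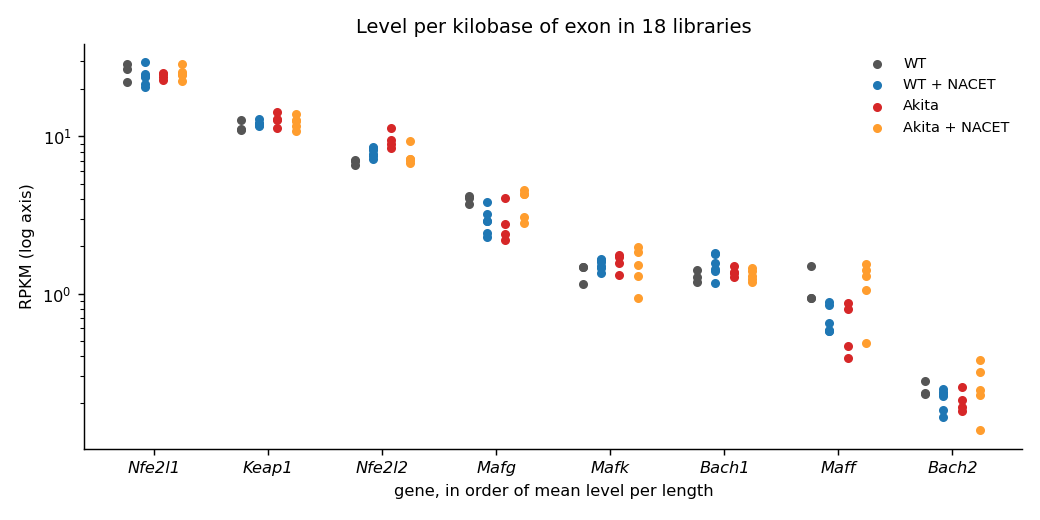
RPKM of the 8 regulators on a log axis, ordered by mean, with a point for each of the 18 libraries colored by group. Nfe2l1, Keap1, Nfe2l2 and Mafg keep their order in every library, while Mafk, Bach1 and Maff overlap.

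Nfe2l2, the transcript of NRF2 itself, was the only regulator of the 8 that passed the test between Akita and WT. It is encoded on the minus strand of chromosome 2, 75513570 to 75542698 in mm9. WT replicates 1 to 3 had 26.5, 27.0 and 25.0 CPM, and Akita replicates 1 to 4 had 33.8, 31.9, 36.2 and 43.2 CPM. Every Akita library was above every WT library, and Akita replicate 4 stood highest. WT + NACET ranged from 27.1 to 32.5 CPM with a median of 30.2, entirely above WT. Akita + NACET replicates 1 to 5 had 35.7, 26.6, 27.4, 25.7 and 27.1 CPM. Of these, 4 lay within 25.7 to 27.4 CPM, near WT and below every Akita library, and replicate 1 lay within the range of Akita.

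To ask what accompanied diabetes, Akita was compared with WT. Nfe2l2 was upregulated. Its mean was 26.2 ± 1.05 CPM in WT (SD, n = 3) and 36.3 ± 4.93 CPM in Akita (SD, n = 4), which gave a log2 fold change of 0.47 with an SE of 0.12 and an adjusted p of 0.0266 by the quasi-likelihood test of edgeR with Benjamini-Hochberg adjustment over all genes. That made 1 of 8 regulators a DEG (differentially expressed gene, adjusted p of at most 0.05), where 7.64% of all tested genes were DEGs, 3.96% upregulated and 3.68% downregulated. The libraries of the groups did not overlap for 2 of the 8, Nfe2l2 and Maff, against 23.2% of all tested genes, so that this count was near the background. The Nfe2l2 call was lost without Akita replicate 4 (adjusted p = 0.0824) and without WT replicate 1 (0.116), 2 (0.0880) or 3 (0.0573), all with a log2 fold change of at least 0.376. With the outside-exon share of each library as a covariate, the log2 fold change was 0.37 and the adjusted p 0.335, and 0 genes in all were called. Markers of several cell types moved in the same comparison. The 3 amacrine cell markers were downregulated, with log2 fold changes of −0.67 for Gad1 (adjusted p = 0.0272), −0.66 for Slc6a9 (0.0365) and −0.63 for Tcfap2b (0.0169), and their sum was 209 to 282 CPM in Akita against 332 to 435 in WT. The endothelial marker Cldn5 (−2.11, adjusted p = 0.0365), at 2 to 47 counts per library, and the pericyte marker Pdgfrb (−1.08, 0.0437) were also lower. The other endothelial markers, Kdr (−0.35, adjusted p = 0.253) and Pecam1 (0.35, 0.457), and the other pericyte marker, Rgs5 (−0.32, 0.387), were not called. The rod markers Gnat1 and Pde6b were at 0.57 (adjusted p = 0.0629) and 0.36 (0.0852). The part of these cell types in the result was not tested.

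To compare treated with untreated diabetic mice, Akita + NACET was set against Akita, a comparison that shares the 4 Akita libraries with the one above. Nfe2l2 was downregulated, to a mean of 28.5 CPM ± 4.08 (SD, n = 5), at −0.35 ± 0.10 on the log2 scale (SE, adjusted p = 0.0411). It was again 1 DEG of 8, where 9.65% of all tested genes were DEGs, 4.51% upregulated and 5.14% downregulated. The groups were without overlap for 0 of the 8, against 14.1% of all tested genes. For Nfe2l2 the overlap came from Akita + NACET replicate 1, without which the log2 fold change was −0.44 (adjusted p = 0.0175). The call was close to the threshold: the adjusted p was between 0.0539 and 0.144 in the 7 fits without Akita replicate 1, 3 or 4 or without Akita + NACET replicate 2, 3, 4 or 5, and 0.0526 without the 3 libraries high in lens markers. With the covariate it was 0.654, at a log2 fold change of −0.24. The photoreceptor markers Gnat1 (rods, −0.65, adjusted p = 0.0238) and Gnat2 (cones, −0.46, 0.0321) were downregulated in this comparison. Tcfap2b (0.50, adjusted p = 0.0241), Cldn5 (2.14, 0.0239) and Pdgfrb (1.01, 0.0354) were upregulated. Other markers of these cell types were not called. For photoreceptors they were Pde6b (−0.33, adjusted p = 0.0683), Opn1sw (−0.70, 0.0811) and Arr3 (0.14, 0.648). For amacrine cells they were Gad1 (0.41, 0.0863) and Slc6a9 (0.39, 0.122), and for vessels Kdr (0.20, 0.457), Pecam1 (−0.26, 0.507) and Rgs5 (0.42, 0.177). The part of these markers in the result was not tested.

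NACET in WT mice gave no call among the 8 regulators, where 1.48% of all tested genes were DEGs. At an unadjusted p below 0.05 there were 2, Maff and Mafg. Nfe2l2 had a mean of 30.1 CPM ± 2.07 (SD, n = 6) in WT + NACET, a log2 difference from WT of 0.20 with a 95% interval of −0.03 to 0.43 (adjusted p = 0.317). Its groups did not overlap, as for Maff, and such a separation was found in 11.5% of all tested genes. The test of the difference between the NACET effects in Akita and in WT, the interaction of genotype and NACET, called Nfe2l2 with a value of −0.55 ± 0.15 (SE) on the log2 scale and an adjusted p of 0.0179. In this test 3 of the 8 regulators were called, Nfe2l2, Maff and Mafg, against 20.3% of all tested genes, 10.1% above 0 and 10.2% below 0. The Nfe2l2 interaction was called in 25 of 26 alternative fits, the exception being the covariate (−0.37, adjusted p = 0.639). Cell type markers were called in the interaction as well. Below 0 were Gnat1 (−0.91, adjusted p = 0.0138), Pde6b (−0.57, 0.0218), Gnat2 (−0.90, 0.00482) and the astrocyte marker Gfap (−2.11, 0.0209). Above 0 were Tcfap2b (0.89, adjusted p = 0.00410), Gad1 (0.74, 0.0244), Cldn5 (2.83, 0.0124), Pdgfrb (1.65, 0.0105) and the horizontal cell marker Onecut1 (1.85, 0.00819). Of the markers tested, these were 2 of 2 for rods, 1 of 3 for cones, 1 of 2 for astrocytes and 2 of 3 for amacrine cells. They were also 1 of 3 for endothelium, 1 of 2 for pericytes and 1 of 3 for horizontal cells. The markers of vessels did not move together. Of those not called in the interaction, Rgs5 (pericytes) and Pecam1 (endothelium) lay below 0 and Kdr (endothelium) above 0. Rgs5 was lower in Akita + NACET than in WT + NACET (−0.66, adjusted p = 0.0261), where Pdgfrb was at 0.57 (0.124). Of the other cone markers, Opn1sw was at −0.85 (adjusted p = 0.108) and Arr3 at 0.30 (0.456). The summed astrocyte markers were 129 to 270 CPM in WT + NACET, against 33.7 to 79.1 in WT, 33.6 to 117 in Akita and 26.2 to 89.0 in Akita + NACET. Nearly all of this sum was Gfap, with a mean of 107 CPM over all libraries against 0.582 for Pax2. In Akita + NACET vs WT + NACET, Gfap was at −1.65 (adjusted p = 0.0104) and Pax2 at 0.15 (0.826). The part of these cell type markers in the interactions of the regulators was not tested.

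**Figure D2:**
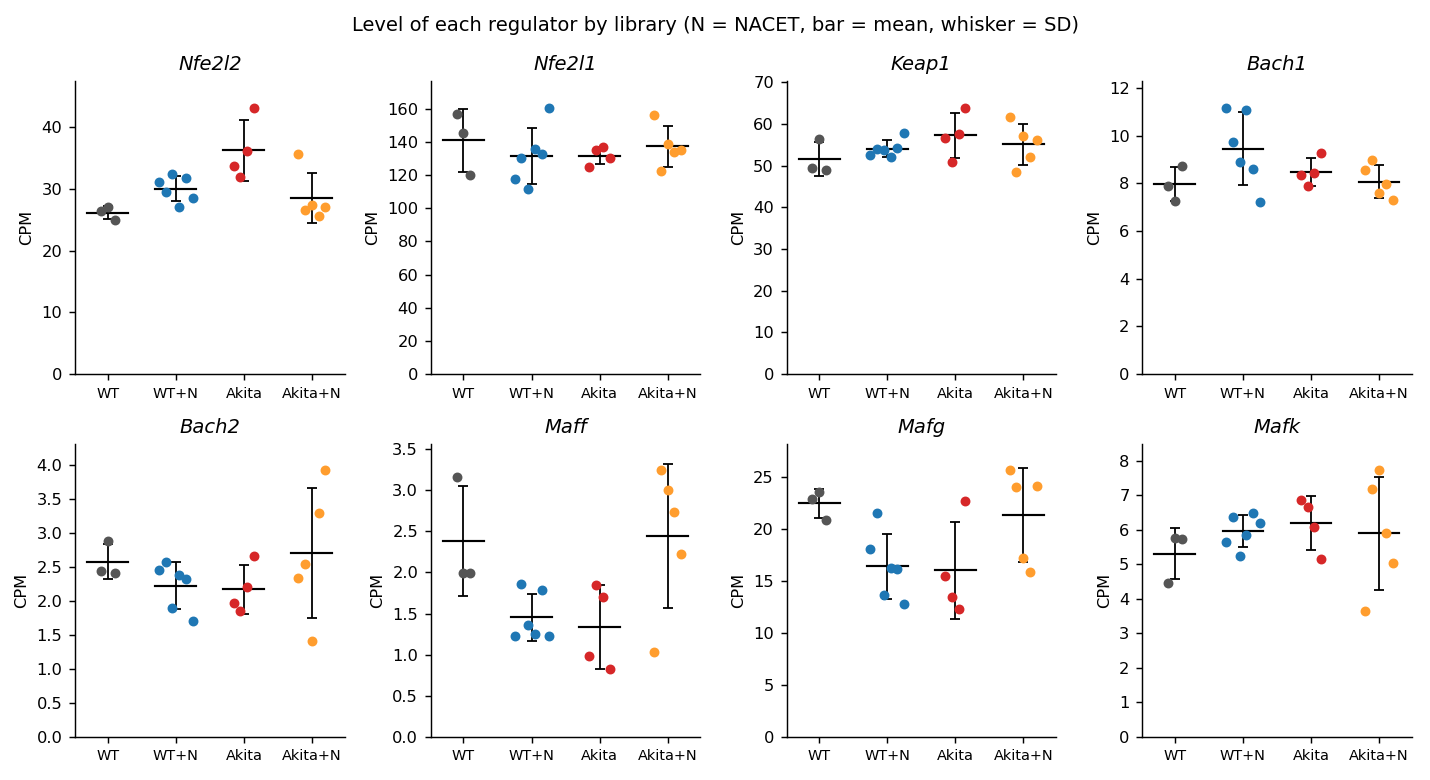
CPM of each regulator in every library by group, with the group mean as a bar and the SD as a whisker. Nfe2l2 stands highest in Akita, with Akita + NACET replicate 1 at 35.7 CPM apart from the other 4 libraries of its group, and Maff and Mafg have lower means in WT + NACET and Akita than in WT and Akita + NACET.

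The small MAF proteins lack a transactivation domain and serve as the shared partners of NRF2, NRF1 and the BACH repressors. Maff (plus strand of chromosome 15, 79177971 to 79189502 in mm9) was the least counted of the 8. WT replicates 1 to 3 had 3.16, 1.998 and 1.987 CPM, and Akita replicates 1 to 4 had 0.982, 1.85, 1.70 and 0.829 CPM. Every Akita library was below every WT library, though by a narrow gap at 1.85 against 1.987. WT + NACET ranged from 1.23 to 1.86 CPM with a median of 1.31, also entirely below WT. Akita + NACET replicates 1 to 5 had 1.03, 3.24, 2.999, 2.73 and 2.22 CPM. Replicate 1 was thus as low as the Akita libraries, and the other 4 were above all of them.

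Each single comparison left Maff short of the threshold. The log2 fold change was −0.80 ± 0.34 (SE) in Akita vs WT (adjusted p = 0.137), −0.71 ± 0.31 in WT + NACET vs WT (0.216) and 0.85 ± 0.30 in Akita + NACET vs Akita (0.0767). The interaction was 1.56 ± 0.43 (SE), with a 95% interval of 0.65 to 2.46 and an adjusted p of 0.0186. It was not called without WT replicate 1, the highest WT library (1.303, adjusted p = 0.0734), nor with the covariate (1.37, adjusted p = 0.562). Without Akita + NACET replicate 1, Maff was also called in Akita + NACET vs Akita, at a log2 fold change of 1.04 (adjusted p = 0.0252).

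Mafg (minus strand of chromosome 11, 120486431 to 120494914 in mm9) had the same pattern of group means at a higher level. WT replicates 1 to 3 had 22.9, 23.6 and 20.9 CPM, and Akita replicates 1 to 4 had 15.5, 13.5, 12.3 and 22.7 CPM. Akita replicate 4 lay within WT and the other 3 Akita libraries below it. WT + NACET ranged from 12.8 to 21.5 CPM with a median of 16.2. Akita + NACET replicates 1 to 5 had 25.6, 24.0, 17.2, 15.8 and 24.1 CPM, so that 3 were above and 2 below the WT libraries. The log2 fold change was −0.49 ± 0.20 (SE) in Akita vs WT (adjusted p = 0.128), −0.45 ± 0.19 in WT + NACET vs WT (0.192) and 0.42 ± 0.18 in Akita + NACET vs Akita (0.131).

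The interaction for Mafg was 0.87 ± 0.26 (SE, adjusted p = 0.0253). The call was lost in the fits that omitted WT replicate 1 (adjusted p = 0.0610), Akita replicate 3 (0.0505) or WT replicate 2 (0.0646), and with the covariate it fell to 0.31 (adjusted p = 0.825). Exons of Mafg overlap those of Sirt7, a deacetylase gene annotated on the same strand, and its symbol also covers a pseudogene inside the locus, so reads of these genes can be hard to assign. Sirt7 was downregulated in Akita vs WT (log2 fold change −0.52 ± 0.13, adjusted p = 0.0263) and had an interaction of 0.71 ± 0.17 (adjusted p = 0.00868), in the same directions as Mafg.

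Mafk (plus strand of chromosome 5, 140267467 to 140278607 in mm9), the remaining small MAF, was not called in any of the 6 tests. Its means (± SD) were 5.31 ± 0.743 CPM over the 3 WT libraries, 5.96 ± 0.474 over 6 of WT + NACET, 6.19 ± 0.775 over 4 of Akita and 5.90 ± 1.64 over 5 of Akita + NACET. The ranges of all 4 groups overlapped, and the 95% interval of the interaction ran from −0.77 to 0.30 on the log2 scale.

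**Figure D3:**
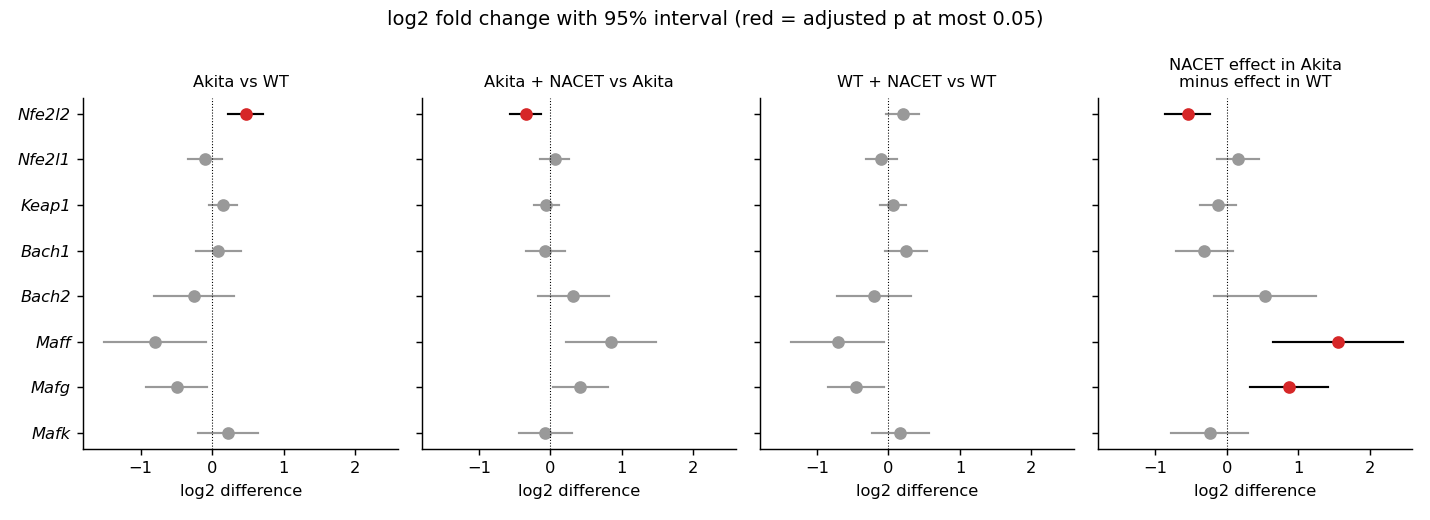
log2 fold change of each regulator in 3 comparisons and the interaction of genotype and NACET, with 95% intervals. Red points passed an adjusted p of 0.05: Nfe2l2 in Akita vs WT (0.47) and Akita + NACET vs Akita (−0.35), and Nfe2l2, Maff and Mafg in the interaction.

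Keap1 (minus strand of chromosome 9, 21034174 to 21043776 in mm9), the adaptor that presents NRF2 for degradation, was not called in any of the 6 tests. WT replicates 1 to 3 had 49.5, 56.4 and 49.0 CPM, and Akita replicates 1 to 4 had 56.7, 50.8, 57.6 and 63.9 CPM. WT + NACET ranged from 52.0 to 57.9 CPM with a median of 53.9, and Akita + NACET replicates 1 to 5 had 61.6, 48.5, 57.1, 52.1 and 56.2 CPM. The groups overlapped throughout. The log2 fold change in Akita vs WT was 0.15, with a 95% interval of −0.05 to 0.35 that leaves room for an increase of up to 1.27-fold (adjusted p = 0.317). Per length, the ratio of Keap1 to Nfe2l2 transcripts had means (± SD) of 1.67 ± 0.0931 over the 3 WT libraries, 1.53 ± 0.125 over 6 of WT + NACET, 1.35 ± 0.0692 over 4 of Akita and 1.65 ± 0.138 over 5 of Akita + NACET. The 4 Akita libraries, at 1.26 to 1.43, lay below all WT and all Akita + NACET libraries, whose lowest were 1.59 and 1.47, and overlapped WT + NACET at 1.41.

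Nfe2l1 (minus strand of chromosome 11, 96678728 to 96691282 in mm9) had nearly the same level in all groups. Its means (± SD) were 141 ± 18.7 CPM over the 3 WT libraries, 132 ± 17.1 over 6 of WT + NACET, 132 ± 5.32 over 4 of Akita and 138 ± 12.3 over 5 of Akita + NACET. The 95% interval of the log2 fold change was −0.33 to 0.14 in Akita vs WT and −0.14 to 0.27 in Akita + NACET vs Akita, or 0.795-fold to 1.0995-fold and 0.905-fold to 1.203-fold.

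The BACH repressors were not called in any test either. Bach1 (plus strand of chromosome 16, 87699190 to 87733591 in mm9), a heme-regulated repressor of Hmox1, had means (± SD) of 7.97 ± 0.731 CPM over the 3 WT libraries, 9.45 ± 1.52 over 6 of WT + NACET, 8.48 ± 0.587 over 4 of Akita and 8.07 ± 0.675 over 5 of Akita + NACET. Bach2 (plus strand of chromosome 4, 32325779 to 32673083 in mm9), best known from lymphocytes, was at 1.40 to 3.92 CPM over all libraries. Its Akita + NACET libraries, which hold both of those extremes, varied most, with an SD of 0.958 CPM around a mean of 2.70. The 95% interval for Bach2 in Akita vs WT, −0.82 to 0.31 on the log2 scale, was wide at these counts. The direction of Bach2 in Akita vs WT, a log2 difference of −0.25, turned to 0.16 with the covariate.

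In the other comparisons made between pairs of groups, 0 of the 8 regulators were called. Akita was not tested against WT + NACET. For Akita + NACET vs WT, 0.00618% of all tested genes were DEGs, 0 regulators had an unadjusted p below 0.05, and the log2 differences were at most 0.15 in size. For Akita + NACET vs WT + NACET, 13.3% of all tested genes were DEGs and 2 regulators, Maff and Mafg, had an unadjusted p below 0.05. Maff was 0.76 ± 0.27 (SE) higher on the log2 scale (adjusted p = 0.0652) and was called without Akita + NACET replicate 1 and by DESeq2.

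**Figure D4:**
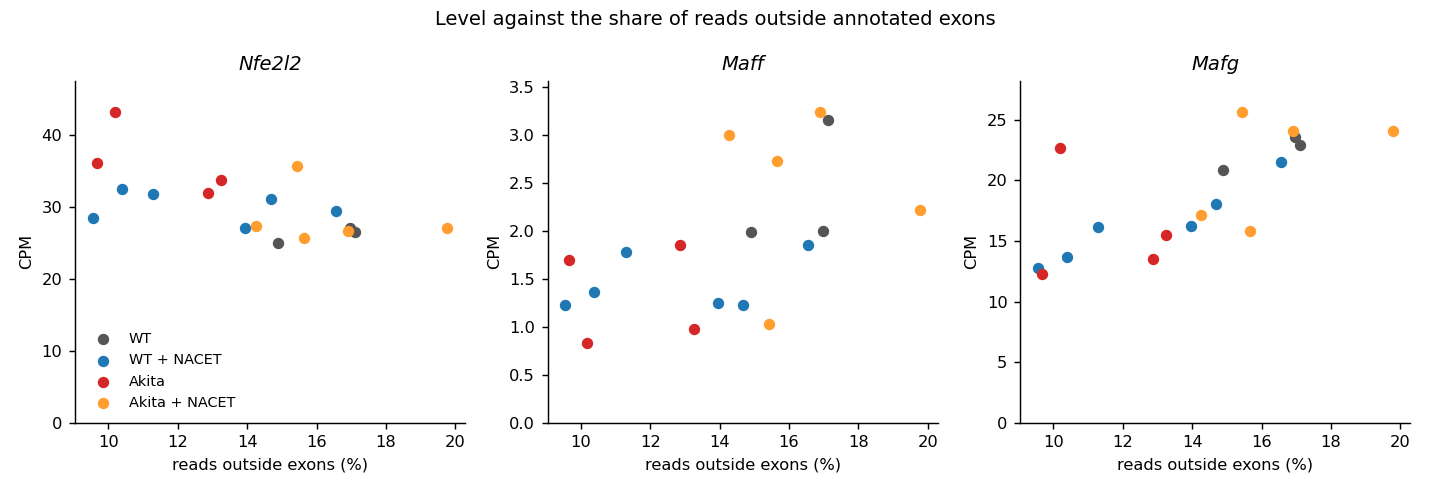
CPM of Nfe2l2, Maff and Mafg in each library against the share of uniquely aligned reads outside annotated exons in percent, colored by group. The Akita libraries lie at 9.67 to 13.3% and the WT and Akita + NACET libraries at 14.3% or more, while WT + NACET, at 9.55 to 16.5%, spans both ranges.

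The genes whose profile over the 18 libraries was most like that of each regulator were found by Pearson correlation of log2 CPM, a description in which all points share library composition. For Nfe2l2 they were Plekhb1 (r = 0.91), a gene abundant in photoreceptors, and Daglb (r = 0.90), which encodes a diacylglycerol lipase. With group means removed, r was 0.795 for Plekhb1 and 0.863 for Daglb. High values were common, as the top 1% of the genes compared had r of at least 0.80 with Nfe2l2. For Mafg the most alike genes were 3110057O12Rik and Ankzf1 (r = 0.88 for each), and for Maff they were Nle1 (r = 0.83) and Stc1 (r = 0.79). Nfe2l1 was most like B3gat3 (r = 0.86) and Gm447 (r = 0.84), and Bach2 most like Tm9sf4 (r = 0.87) and Exoc8 (r = 0.85). The closest profiles were looser for Keap1 with Zc3h7b and Sympk (r = 0.76 for each), Bach1 with 4930525G20Rik (r = 0.78) and Klhl29 (r = 0.76), and Mafk with Adprhl1 (r = 0.77) and Pla2g4b (r = 0.75). No member of the 8 was among the genes named for another member.

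Downstream of these regulators, 20 canonical NRF2 targets were listed and all were tested. In Akita vs WT, 0 of the 20 were called by edgeR (3 had an unadjusted p below 0.05) and 2 by DESeq2 with all groups, with a median log2 fold change of 0.11 against −0.01 over all tested genes. In Akita + NACET vs Akita, 5 of the 20 were downregulated and 0 upregulated, with a median of −0.22 against −0.0032 over all tested genes, of which 9.65% were called and 5.14% downregulated. Taldo1 (transaldolase) had a mean of 186 ± 24.4 CPM in the 4 Akita and 138 ± 20.2 CPM in the 5 Akita + NACET libraries (± SD), and its log2 fold change was −0.43 with an SE of 0.10 (adjusted p = 0.0210). Pgd (phosphogluconate dehydrogenase) changed by −0.28 ± 0.07 (adjusted p = 0.0227) and G6pdx (glucose-6-phosphate dehydrogenase) by −0.31 ± 0.09 (adjusted p = 0.0410). The ferritin heavy chain gene Fth1 changed by −0.49 ± 0.15 (adjusted p = 0.0444), and Txn1, thioredoxin, by −0.40 ± 0.12 (adjusted p = 0.0463). Tkt, the transketolase of the pentose phosphate pathway to which Taldo1, Pgd and G6pdx also belong, was at 0.08 ± 0.13 (adjusted p = 0.717). The count of 5 was sensitive to single libraries, at 0 without Akita replicate 4 or Akita + NACET replicate 5 and between 1 and 3 without Akita replicate 1, 2 or 3 or Akita + NACET replicate 2 or 4. It was 0 with the covariate, the replicate block or edgeR on 2 groups, 1 with no filter on low counts and 2 without the libraries high in lens markers.

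The targets Nqo1, Gclc, Gclm, Srxn1 and Txnrd1, which are often read as markers of NRF2 activity, were not called in any of the 6 tests. In WT + NACET vs WT, 0 of the 20 were called and 1 had an unadjusted p below 0.05, with a median of 0.12 against −0.01 over all tested genes. Some targets varied widely within a group, such as Slc7a11 (1.19 to 14.4 CPM) and Mgst1 (7.89 to 64.7 CPM) in WT + NACET. For such genes the lack of a call does not show a stable level. The interaction was below 0 for Pgd (−0.44 ± 0.10, adjusted p = 0.00791), Taldo1 (−0.57 ± 0.15, adjusted p = 0.0140) and Txn1 (−0.67 ± 0.18, adjusted p = 0.0156), 3 of the 20, against 20.3% of all tested genes and 10.2% below 0, so that this count was near the background. With the covariate 0 were called. Between the NACET groups, Txn1, Taldo1, Hmox1 (heme oxygenase 1, a target of both NRF2 and BACH1) and Pgd were lower in Akita + NACET than in WT + NACET, 4 of the 20 against 13.3% of all tested genes. Hmox1 had the largest of these log2 differences, −0.76 ± 0.23 (SE, adjusted p = 0.0321), at 2.61 CPM ± 0.647 (SD, n = 5) against 4.41 ± 1.59 (SD, n = 6). Its libraries overlapped narrowly, at 1.57 to 3.36 CPM in Akita + NACET and 3.29 to 7.55 in WT + NACET (median 3.87). The highest value came from WT + NACET replicate 5, the library with the most lens marker RNA. In this comparison 3 of 4 microglia markers were also lower, and the 4 summed to 15.7 to 25.6 CPM in Akita + NACET against 29.4 to 39.5 in WT + NACET. Their part in the Hmox1 value was not tested.

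**Figure D5:**
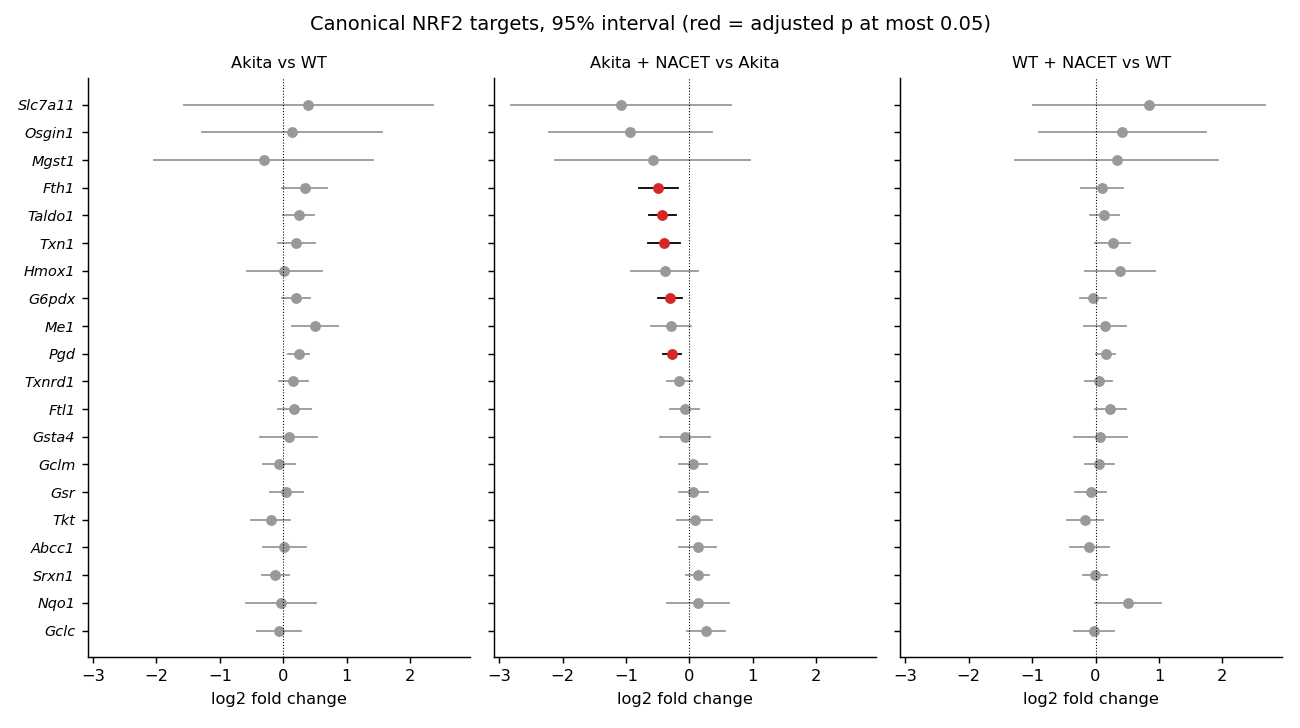
log2 fold change with 95% intervals for the 20 canonical NRF2 targets in 3 comparisons, ordered by their value in Akita + NACET vs Akita. Red points passed an adjusted p of 0.05, and all 5 of them, Fth1, Taldo1, Txn1, G6pdx and Pgd, lie below 0 in Akita + NACET vs Akita.

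Among 10 genes of the KEAP1-CUL3 ligase and KEAP1 partners, 0 were called in Akita vs WT (2 had an unadjusted p below 0.05) and 1 in Akita + NACET vs Akita, Psmd10, which encodes gankyrin (−0.30 ± 0.09, adjusted p = 0.0490). That count was near the 9.65% of all tested genes, and it was 0 in 13 of 19 alternative fits, the covariate among them. The interaction was below 0 for 3 of the 10, where 20.3% of all tested genes were called and 10.2% below 0: the ligase subunit Rbx1 (−0.54 ± 0.14, adjusted p = 0.0124), Dpp3, a competitor of NRF2 for KEAP1 (−0.51 ± 0.14, adjusted p = 0.0142), and Psmd10 (−0.45 ± 0.14, adjusted p = 0.0271). Between the NACET groups, Dpp3 (−0.34 ± 0.08), Psmd10 (−0.30 ± 0.09) and Rbx1 (−0.29 ± 0.09) were lower in Akita + NACET and Fam123b, which encodes the WTX protein, was higher (0.41 ± 0.12), which made 4 of the 10 against 13.3% of all tested genes. Cul3, Sqstm1 and Cand1 were not called in any test. Of 7 genes for degradation of NRF2 without KEAP1, the SCF adaptor Skp1a had an interaction of −0.66 ± 0.18 (adjusted p = 0.0176) and no gene was called in Akita vs WT, Akita + NACET vs Akita or WT + NACET vs WT. Between the NACET groups, Skp1a was lower in Akita + NACET (−0.42 ± 0.11), while Btrc (0.22 ± 0.06) and Syvn1 (0.34 ± 0.10), substrate-binding or catalytic parts of NRF2 ligases, were higher.

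Of 6 genes for processing and turnover of NRF1, 2 were downregulated in Akita vs WT and upregulated in Akita + NACET vs Akita, comparisons that share the Akita libraries and in which 7.64% and 9.65% of all tested genes were called. Ogt, the O-GlcNAc transferase, had means (± SD) of 205 ± 5.40 CPM over the 3 WT libraries, 144 ± 11.5 over 4 of Akita and 192 ± 17.5 over 5 of Akita + NACET. Its log2 fold changes were −0.51 ± 0.10 (adjusted p = 0.0162) and 0.41 ± 0.09 (adjusted p = 0.0204). Fbxw7, an F-box protein that recognizes phosphorylated substrates, changed by −0.54 ± 0.13 (adjusted p = 0.0235) and 0.45 ± 0.12 (adjusted p = 0.0250). Vcp, Ngly1, Ddi2 and Sel1l, which extract, deglycosylate or cleave NRF1 or degrade it at the endoplasmic reticulum, were not called in any test. Of 6 nuclear partners, Atf4 (0.57 ± 0.16) and Ep300 (0.49 ± 0.14) were higher in Akita + NACET than in WT + NACET. That made 2 of the 6 against 13.3% of all tested genes, and 0 of the 6 were called in the other 5 tests. With the covariate, 0 of the 6 NRF1 genes were called in Akita vs WT or in Akita + NACET vs Akita. The same count of 0 was found without WT replicate 1 or 2 in Akita vs WT, and without Akita replicate 4 or Akita + NACET replicate 5 in Akita + NACET vs Akita.

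Relatives of the 8 regulators were measured beside them. Nfe2, the founder of the family in blood cells, had at most 3 counts in any library and was not tested, and Nfe2l3 had 2 to 21 counts and was not called in any test. Of the large MAF factors, Mafa had 0 counts in all libraries, and Maf was not called. A count of 0 in a single library, taken alone, still allows an expected count of up to 3. Nrl, the large MAF factor that sets rod identity, was far more abundant. It was at 1813 to 2348 CPM in WT, 2381 to 3136 in WT + NACET, 2448 to 3578 in Akita and 1565 to 2358 in Akita + NACET. It was upregulated in Akita vs WT (0.55 ± 0.15, adjusted p = 0.0359) and downregulated in Akita + NACET vs Akita (−0.49 ± 0.13, adjusted p = 0.0300), with 0 calls under the covariate in either. These are the directions of Nfe2l2. In Akita + NACET vs Akita, Gnat1 was downregulated, as given above, and Pde6b was not called (adjusted p = 0.0683). Whether the share of rod RNA had a part in the Nfe2l2 values was not tested.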

How the data were processed

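Retinal poly(A) RNA was measured in 18 libraries of 4 groups, taken from the sample titles. The deposited values are read counts per gene, which the authors made with TruSeq v2 single-end libraries, TopHat2 2.1.0 on mm9 and HTSeq 0.11.2, unstranded over exons and without multiply aligned reads. Reads in exons that genes share can be lost or misassigned. Summary entries and 1 entry without a name (0.00544% of gene counts on average) were left out, and 206 ribosomal RNA genes were removed, as in the study's methods.

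Genes were tested with edgeR (4.0.16, R 4.3.3), whose quasi-likelihood F test was run on TMM-normalized libraries after filterByExpr at its defaults (10 counts, 15 in total), in 1 robust fit over all 4 groups with Benjamini-Hochberg adjustment over 16183 genes. The scripts were tested on simulated data. The study used DESeq2, tried here as an alternative (version 1.42.0) beside DESeq2 size factors, other filters, fits of 2 groups, the outside-exon read share as a covariate, the replicate number as a block, ribosomal RNA genes kept, each library left out in turn and, chosen after seeing the data, the 3 libraries with lens markers above 1000 CPM left out together. RPKM used the merged exon length of GENCODE in mm9. Likeness was Pearson correlation of log2 CPM (prior count 2), with the top 2 genes of at least 1 CPM named for each regulator. From the other lists, at most 4 genes called per list and test were named by smallest p. Txn1 in Akita + NACET vs Akita, Nfe2, Nfe2l3 and the genes said not to be called were named outside this rule, after their values were seen. The members and lists were chosen with earlier results of these data known. From the marker and relative lists, 2 genes were not analysed here. Replicates were compared by a chi-square per gene, which ranged from 4.82 to 55.0, so each library was counted on its own.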

Additional observations from a re-analysis of the deposited data

Results flagged for a closer look

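Nfe2l2 in Akita + NACET replicate 1, at 35.7 CPM, stood apart from the other 4 libraries of its group, which lay between 25.7 and 27.4 CPM. That library was also the lowest of its group for Maff (1.03 CPM) and Mafk (3.65 CPM) and the highest for Keap1, Nfe2l1 and Mafg (61.6, 157 and 25.6 CPM). Keap1 in WT + NACET replicate 6, at 57.9 CPM, stood above the other 5 libraries of its group, at 52.0 to 54.2 CPM. Such a gap is found by chance in about 1 in 20 groups, and 24 groups were examined.

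The effect of NACET differed between Akita and WT for 3 of the 8 regulators, by the interaction term of the edgeR fit (Akita effect minus WT effect, log2). The same term was called for 20.3% of all tested genes. It was −0.55 for Nfe2l2 (adjusted p = 0.0179), 1.56 for Maff (adjusted p = 0.0186) and 0.87 for Mafg (adjusted p = 0.0253). With the outside-exon read share as a covariate, 0 of the 8 were called. The share of reads outside exons also moved in opposite directions with NACET in the 2 genotypes, from a median of 17.0% to 12.6% in WT and from 11.5% to 15.7% in Akita.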

How the results depend on the processing

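In Akita vs WT the count of regulators called went from 1 to 0 with the outside-exon read share as a covariate, with the replicate block and with edgeR on 2 groups, and was 0 to 1 when each library was left out in turn. In Akita + NACET vs Akita it went from 1 to 0 with no filter on low counts, the covariate, the replicate block, edgeR on 2 groups, DESeq2 on 2 groups and the lens-marker libraries left out, and was 0 to 2 with each library left out in turn. In Akita + NACET vs WT + NACET it went from 0 to 1 (Maff) with DESeq2 on all groups and on 2 groups, and was 0 to 1 with libraries left out. The interaction went from 3 to 0 with the covariate and was 1 to 3 with libraries left out, the 1 being Nfe2l2, without WT replicate 1. WT + NACET vs WT and Akita + NACET vs WT stayed at 0 in every fit. Fits of 2 groups and those without a library hold fewer samples. Beyond that, the cause was not tested. No called value changed sign. With the replicate block, Nfe2l2 was at 0.47 (adjusted p = 0.0604) in Akita vs WT and −0.35 (adjusted p = 0.0861) in Akita + NACET vs Akita, and DEGs fell to 507 and 219. The replicate numbers did not pair the samples: of 22 pairs with the same number, 4 had deviations correlated above 0.1 (r from −0.33 to 0.34), and 2 of 17 libraries correlated best with their own number. Other DEG counts over all genes that moved by over 1.5 times were 2080 (DESeq2 on all groups), 148 (edgeR on 2 groups) and 0 (covariate) for Akita vs WT, against 1237, and 2387 (DESeq2 on all groups), 1010 (no filter), 700 (edgeR on 2 groups) and 0 (covariate) for Akita + NACET vs Akita, against 1562. WT + NACET vs WT, at 240, had 705 and 938 with DESeq2 on all and on 2 groups, 85 without the lens-marker libraries and 61 with the covariate. Akita + NACET vs WT + NACET, at 2148, had 1363 with the block, 1342 without the lens-marker libraries and 194 with the covariate, the interaction, at 3289, had 17 with the covariate, and Akita + NACET vs WT, at 1, had 0 to 28. With libraries left out in turn the DEGs were 0 to 1515 in Akita vs WT, 1 to 1754 in Akita + NACET vs Akita, 72 to 329 in WT + NACET vs WT, 860 to 2422 in Akita + NACET vs WT + NACET and 1699 to 3524 for the interaction. The filter at a mean count of 50 gave no value for Bach2 and Maff. Depth limits Maff and Bach2 most, at 10 to 55 and 22 to 60 counts per library.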
